A study of Mus musculus with 2 samples.

Results

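The genes described here encode the constitutive subunits of the proteasome, with a few assembly chaperones and tissue-restricted subunits under the same symbols. They are the 36 of the 32285 rows of the count table whose symbol is Psma, Psmb, Psmc or Psmd followed by a number, without the interferon-inducible subunits *Psmb8*, *Psmb9* and *Psmb10*. By symbol, 16 of the 36 are assigned to the core particle (Psma and Psmb) and 20 to the cap (Psmc and Psmd). The cap set thus includes 3 assembly chaperone genes, *Psmd5*, *Psmd9* and *Psmd10*. The core set includes the tissue-restricted *Psma8* and *Psmb11*. Of the 36, 35 had a count in at least 1% of cells. The exception, *Psmb11*, which encodes a thymus subunit, was counted 3 times in VEH and 1 time in LEM.

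The data are single-cell RNA counts of microglia from PSAPP mice, whose APPswe/PS1.delta.E9 transgenes give amyloid deposits in the brain. Both groups carried these transgenes, and no mice without them are part of the data. One group of 5 mice received lemborexant (LEM), an antagonist of both orexin receptors, at 30 mg/kg daily by gavage for 30 days from 9 months of age, and the other group of 5 received vehicle (VEH). Live CD45loCD11b+ cells of cortex and hippocampus were sorted, and the mice of each treatment were pooled into 1 library of 5′ transcript ends. The VEH library held 18374 cells with 116229678 counts and a median of 5971 counts per cell, and the LEM library held 24392 cells with 160752298 counts and a median of 6034. Each treatment is 1 library, so replicates are lacking and no test was made. Differences are log2 ratios of CPM (the summed counts of a gene or group as a share of all counts of the same cells, in the usual CPM unit), and the 95% intervals beside them cover counting error only. Cells were also split by sex from *Xist* and Y-linked counts, which gives 4 pools from different mice. The pools differ in sex and treatment as well as in mice, and the sexes of a treatment share 1 library. Cells with counts of both sexes (981 in VEH and 1764 in LEM) or of neither (2682 and 2996) are in no pool.

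The proteasome is the barrel-shaped protease that degrades proteins tagged with ubiquitin. Its core is built of outer alpha rings, which gate the entrance, and inner beta rings, in which *Psmb5*, *Psmb6* and *Psmb7* encode the subunits that cut peptide bonds. The cap that binds the barrel holds a ring of ATPases (Psmc) that unfolds substrates, ubiquitin receptors, and a lid with the deubiquitinase encoded by *Psmd14*. Interferon induces *Psmb8*, *Psmb9* and *Psmb10*, whose products replace the constitutive catalytic subunits in the immunoproteasome, and *Psme1* and *Psme2*, which encode the PA28 activator.

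Cell states were gated on raw counts of marker genes that are not proteasome genes. A cell was called DAM-like (disease-associated microglia) with counts of at least 3 of *Cst7*, *Lpl*, *Itgax*, *Spp1* and *Csf1*, interferon-like with at least 4 of 8 interferon-induced genes, and cycling-like with at least 4 of 8 mitotic genes. Homeostatic-like cells had counts of *P2ry12* and *Tmem119*, none of a DAM marker, and at most 1 interferon and 1 cycling marker. This gave 13050 homeostatic-like cells in VEH and 16050 in LEM, 599 and 788 DAM-like cells, 229 and 391 interferon-like cells, and 108 and 156 cycling-like cells. Of cells near the gates, 1713 held 2 DAM markers and 680 held 3, 456 held 3 interferon markers and 256 held 4, and 42 held 3 cycling markers and 31 held 4. The summed DAM markers were at 2394 CPM in VEH and 2116 in LEM among DAM-like cells. The defining microglial genes *P2ry12* and *Tmem119* together were at 6338 CPM in VEH and 6181 CPM in LEM over all cells. In these 4 states, the 3 T cell genes summed to at most 0.134 CPM, the 3 neutrophil genes to at most 0.323 CPM and the 3 neuronal genes to at most 1.88 CPM. Markers of 2 other cell types differed between the states. The 3 astrocyte genes were at 3.99 and 5.19 CPM in DAM-like cells of VEH and LEM and at 6.57 and 2.45 CPM in cycling-like cells, against 1.27 and 1.63 in homeostatic-like cells. The cycling-like values rest on 7 and 4 counts. The 3 oligodendrocyte genes were at 37.7 and 45.1 CPM in DAM-like and at 37.5 and 23.3 CPM in cycling-like cells, against 29.0 and 29.7. In cycling-like cells, with 40 and 38 counts, the libraries thus went opposite ways. The part of these markers in the results was not tested.

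RefSeq start sites (GRCm38.p6) gave a window of the 250 bases upstream of the start for 29 of the 36 genes, and 4 windows that overlap no annotated exon are printed here. By the mean of the libraries, *Psmb6* had the highest ratio among members in DAM-like cells and *Psmd14* the highest in cycling-like cells. *Psmd2*, a scaffold subunit of the cap, and *Psmd4*, a ubiquitin receptor, hold the motif whose share differed most between core and cap genes. Each sequence runs 5′ to 3′ on the strand of the gene and ends at the base before its start, and capitals mark the motifs searched on both strands, which were CCAAT (the CCAAT box), TGANNNNGC (the core of the antioxidant response element), CCGGAAG (an ETS site) and TTTGAA (the cell cycle homology region). The windows lie at chr11:70525107-70525356 on the plus strand for *Psmb6*, chr2:61711444-61711693 on the plus strand for *Psmd14*, chr16:20651402-20651651 on the plus strand for *Psmd2* and chr3:95042615-95042864 on the minus strand for *Psmd4*.
Psmb6: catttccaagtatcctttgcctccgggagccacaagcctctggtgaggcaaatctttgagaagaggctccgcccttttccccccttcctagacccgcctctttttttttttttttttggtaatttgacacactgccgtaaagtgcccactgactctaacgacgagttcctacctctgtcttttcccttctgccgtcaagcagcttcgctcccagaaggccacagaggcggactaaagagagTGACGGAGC
Psmd14: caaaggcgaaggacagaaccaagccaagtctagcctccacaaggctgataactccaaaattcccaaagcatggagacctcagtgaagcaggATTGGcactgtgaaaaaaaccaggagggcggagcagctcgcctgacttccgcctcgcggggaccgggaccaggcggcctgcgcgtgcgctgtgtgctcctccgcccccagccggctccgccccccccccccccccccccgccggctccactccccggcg
Psmd2: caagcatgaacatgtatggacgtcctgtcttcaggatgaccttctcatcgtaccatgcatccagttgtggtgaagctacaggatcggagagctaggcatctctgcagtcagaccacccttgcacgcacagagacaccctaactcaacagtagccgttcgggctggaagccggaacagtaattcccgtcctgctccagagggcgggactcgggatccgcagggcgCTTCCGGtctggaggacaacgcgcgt
Psmd4: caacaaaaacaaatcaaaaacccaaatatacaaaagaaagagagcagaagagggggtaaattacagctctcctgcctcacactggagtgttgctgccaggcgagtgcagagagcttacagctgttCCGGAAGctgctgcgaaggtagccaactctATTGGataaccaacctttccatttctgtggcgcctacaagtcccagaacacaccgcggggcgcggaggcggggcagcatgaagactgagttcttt

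The *Psmb6* window ends in an antioxidant response element core, the *Psmd14* window holds a reverse CCAAT box 159 bases before the start, and the *Psmd2* window holds a reverse ETS site 26 bases before it. The *Psmd4* window holds an ETS site at 125 bases and a reverse CCAAT box at 95 bases. Counting a gene where any of its windows holds the motif, the ETS letters were found for 8 of 17 cap genes and 1 of 12 core genes, which is 31.0% of members against 16.9% of the 9135 expressed genes with a window. CCAAT was in 41.4% of members and 40.6% of expressed genes, the antioxidant response element core in 41.4% and 41.5%, and TTTGAA in 6.90% and 12.9%. These matches are descriptions of letters, and binding was not measured.

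Across all cells, the constitutive proteasome was at nearly the same level in both libraries. The summed core genes were at 1432 CPM in VEH and 1425 CPM in LEM, a log2 ratio of -0.0070 (-0.016 to 0.0021). The summed cap genes were at 1414 CPM in VEH and 1392 CPM in LEM, a ratio of -0.023 (-0.032 to -0.014). Core and cap therefore differed from each other by -0.016 (-0.029 to -0.0028) between the libraries. The interval included 0 in female cells (-0.018, -0.040 to 0.0050) and in male cells (-0.0044, -0.023 to 0.014). It also did so in cells with 4000 to 8000 counts (-0.016, -0.034 to 0.0020). Over the 4 pools of sex and library, the core ranged from 1414 to 1437 CPM and the cap from 1381 to 1428 CPM.

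Single members moved as little. Of the 35 members counted in at least 1% of cells, 34 had a log2 ratio within 0.1 of 0, against 76.7% of the 7412 genes counted in at least 10% of cells. These 34 were themselves counted in at least 10% of cells. In female cells 31 of the 35 were within 0.1, against 58.3% of those genes, and in male cells 33, against 69.4%. Such a share also depends on how many counts the genes have. A ratio of 0.25 in either direction was set as the size to count, and 0 members were past it upward and 1 downward, while 5.76% of the 11775 genes counted in at least 1% of cells were past it upward and 4.17% downward (2.16% and 1.85% of genes counted in at least 10%). The range over the 4 pools had a median of 0.080 over the members and of 0.18 over all these genes. The range of a gene also depends on how many counts it has, and the members counted in at least 10% of cells (34 of 36) had a median of 0.079 against 0.15 for all genes of that kind.

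**Figure D1:**
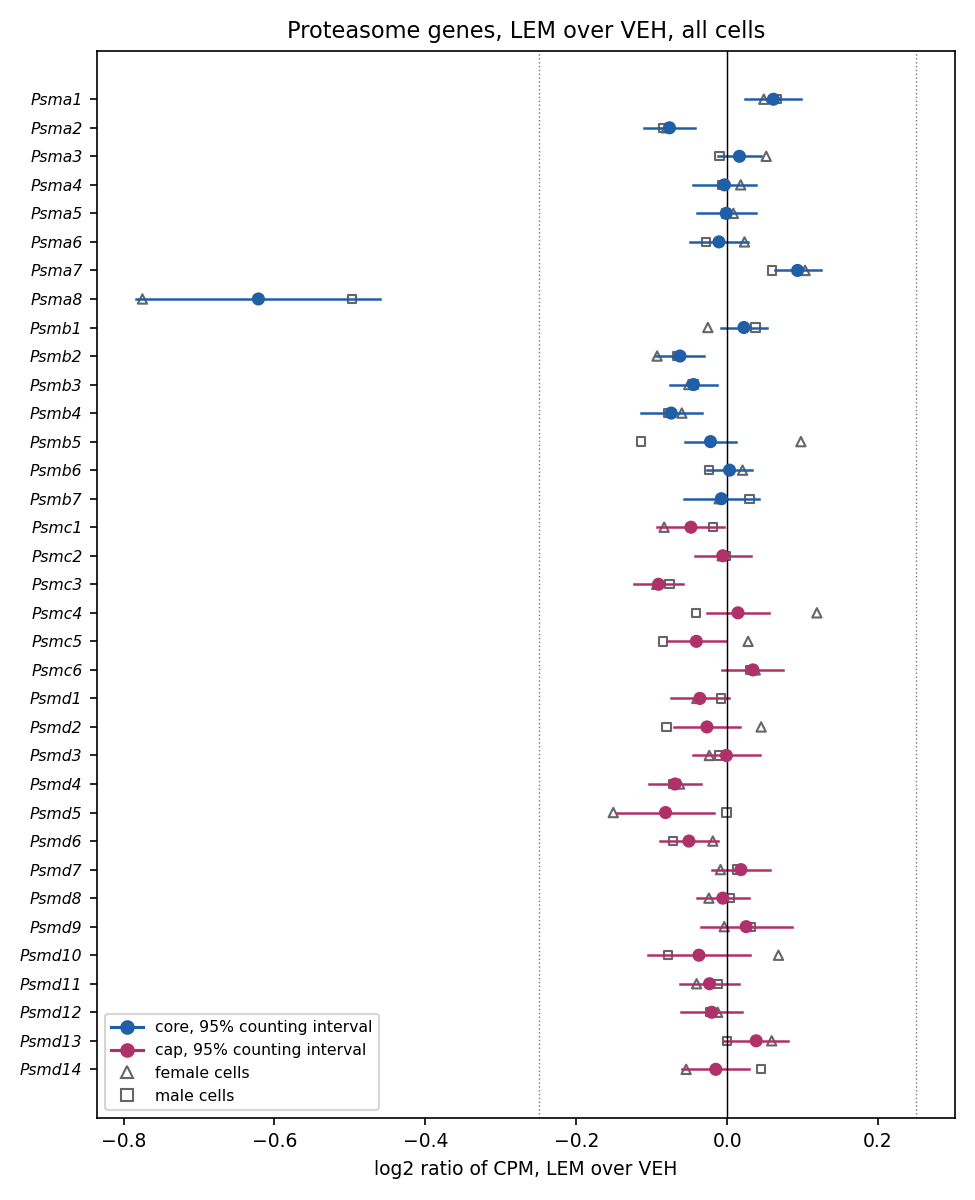
Log2 ratio of CPM in LEM over VEH for each of the 35 proteasome genes counted in at least 1% of cells, over all cells (filled circles, core in blue and cap in red, with 95% counting intervals) and in female (triangles) and male cells (squares); dotted lines mark 0.25 in each direction. All genes but Psma8 sit within 0.1 of 0 over all cells, and Psmb5 has its female and male values on opposite sides of 0.

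The member past the size was *Psma8*, which encodes a testis variant of an alpha subunit. VEH cells held 664 counts of it and LEM cells 597, or 5.71 CPM and 3.71 CPM. The ratio was -0.62 (-0.78 to -0.46), and it was -0.78 among female and -0.50 among male cells. It was counted in 2.71% of all cells, whereas the other 34 members were counted in 15.2% to 56.8%. Among the others the highest was *Psma7*, an alpha ring gene, at 125 CPM in VEH and 134 in LEM, a ratio of 0.093 (0.063 to 0.12). The lowest was *Psmc3*, a cap ATPase gene, at 118 CPM in VEH and 111 in LEM, a ratio of -0.091 (-0.12 to -0.059). Both had the same direction in female and male cells. Next highest were *Psma1*, of the alpha ring, at 85.3 and 89.0 CPM (0.061, 0.024 to 0.098), and *Psmd13*, of the lid, at 66.7 and 68.5 CPM (0.038, -0.0036 to 0.081). Next lowest was the assembly chaperone gene *Psmd5* at 29.9 and 28.3 CPM (-0.082, -0.15 to -0.018). Female cells gave it a ratio of -0.15 and male cells one of -0.00073.

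The catalytic subunit genes were level between the libraries. *Psmb5*, the chymotrypsin-like subunit, was at 109 and 107 CPM in VEH and LEM, *Psmb6*, the caspase-like subunit, at 131 in each, and *Psmb7*, the trypsin-like subunit, at 48.2 and 47.9. *Psmb5* was the member whose female and male cells went in opposite directions with both intervals off 0. It was at 102 CPM in VEH and 109 in LEM among female cells (0.098, 0.038 to 0.16), and at 113 and 104 among male cells (-0.11, -0.16 to -0.067). The ubiquitin receptor gene *Psmd4* was at 99.5 and 94.9 CPM (-0.069, -0.10 to -0.034), and the deubiquitinase gene *Psmd14* was at 61.4 and 60.8 CPM (-0.015, -0.059 to 0.029).

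The sum of the inducible subunits differed more between the pools than the core and cap sums. The summed *Psmb8*, *Psmb9* and *Psmb10* were at 347 CPM in VEH female cells, 404 in VEH male cells, 400.4 in LEM female cells and 347 in LEM male cells. The VEH female and LEM male pools were thus low and the other pools high. Female cells had a LEM over VEH ratio of 0.20 (0.17 to 0.24), and male cells had -0.22 (-0.25 to -0.20), which left -0.041 (-0.059 to -0.023) over all cells. In female over male cells, the same genes had a ratio of -0.22 in VEH and 0.21 in LEM, against 0.00056 and 0.024 for the core and -0.033 and -0.023 for the cap. *Psmb9*, the inducible counterpart of *Psmb6*, had the widest range of the 3 over the 4 pools, from 66.8 CPM in VEH female to 90.6 CPM in VEH male cells. *Psmb10* ranged only from 102 to 112 CPM, a log2 range of 0.14, which is below that of the constitutive *Psmb4* (0.19). Since each pool holds few mice, an effect of treatment, of sex and of single mice cannot be told apart here.

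**Figure D2:**
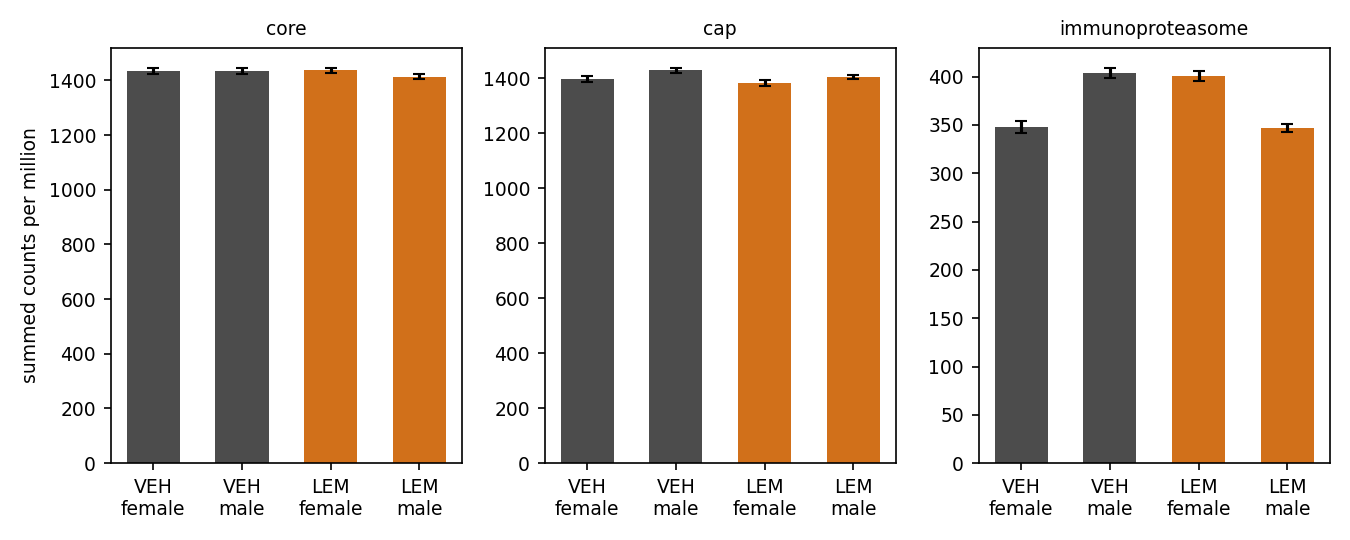
Summed CPM of the core genes, the cap genes and the immunoproteasome genes Psmb8, Psmb9 and Psmb10 (vertical axes, each from 0) in the 4 pools of sex and library, with 95% Poisson intervals for counting error as bars. Core and cap stand level over the pools, while the immunoproteasome genes are at 404 CPM and 400.4 CPM in VEH male and LEM female cells and at 347 CPM in each of the others.

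Between the states, the members differed more than between the libraries. A homeostatic-like cell held a mean of 8.38 core and 8.39 cap counts in VEH, and 8.48 and 8.41 in LEM. A DAM-like cell held 16.4 core and 14.5 cap counts in VEH and 17.8 and 15.6 in LEM, and a cycling-like cell 15.2 and 16.8 in VEH and 16.5 and 18.5 in LEM. These cells also held more counts in all, with medians of 10927 and 10881 in DAM-like and 9457.5 and 10054.5 in cycling-like cells, against 5714.5 and 5749 in homeostatic-like cells. The values that follow are therefore shares of all counts (CPM), computed within each library against its own homeostatic-like cells. The gates count the markers seen in a cell, so deeper cells pass them more readily. Depth and state are therefore not independent here, and how far the gates set the depth of the states was not tested.

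**Figure D3:**
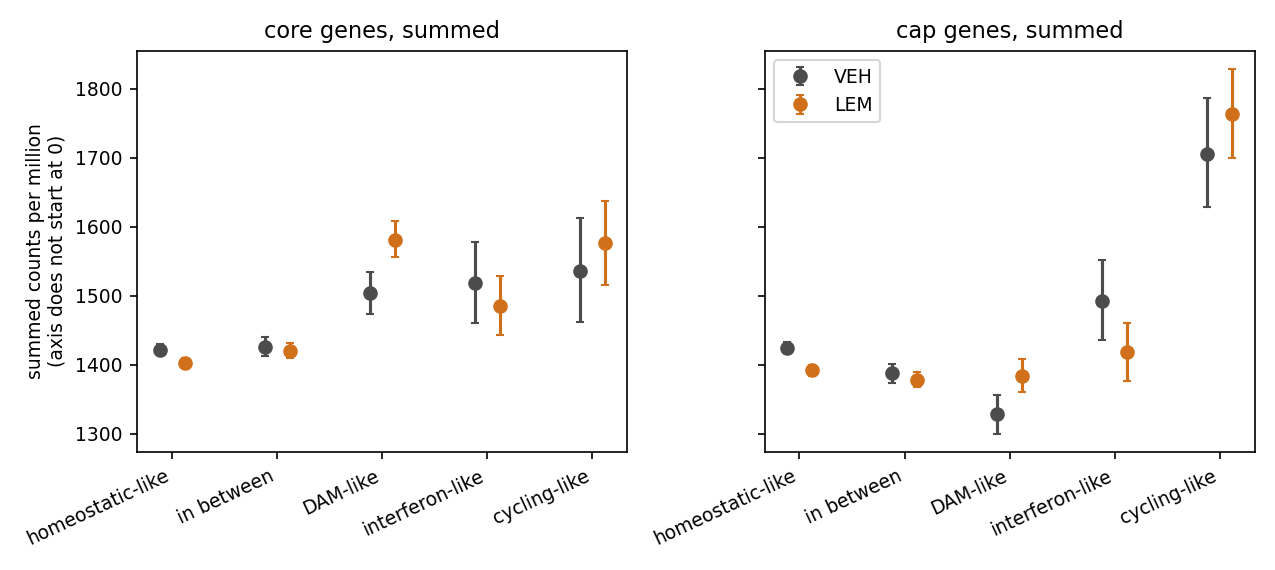
Summed CPM of core genes (left) and cap genes (right) by cell state in VEH (grey) and LEM (orange), with 95% Poisson intervals; the axis does not start at 0. DAM-like cells are at 1504 CPM and 1581 CPM for the core and at 1328 CPM and 1384 CPM for the cap by this scaling, while cycling-like cells have the highest cap values of the states plotted, 1705 CPM in VEH and 1763 CPM in LEM.

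In DAM-like cells the core and the cap went apart. The core was at 1504 CPM in VEH DAM-like cells against 1422 in homeostatic-like cells, and at 1581 against 1403 in LEM. The cap was at 1328 against 1425 in VEH and at 1384 against 1392 in LEM. The core was thus higher in DAM-like cells by 0.081 (0.051 to 0.11) in VEH and 0.17 (0.15 to 0.20) in LEM, and the cap had ratios of -0.10 (-0.13 to -0.070) and -0.0078 (-0.035 to 0.019). The difference of cap minus core, from which the scaling of the libraries cancels, was -0.18 in each library (-0.23 to -0.14 in VEH, -0.22 to -0.14 in LEM). It was -0.18 and -0.19 in VEH female and male cells, and -0.14 and -0.19 in LEM female and male cells.

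The direction of the cap against homeostatic-like cells depends on the scaling, because the median gene counted in at least 10% of cells was itself lower in DAM-like cells, by -0.26 in VEH and -0.25 in LEM. Relative to that median gene, the core was higher by 0.38 and the cap, turned in direction, was higher by 0.20. The cap's direction by CPM also turned with depth. In cells with 4000 to 8000 counts it was 0.092 (0.0068 to 0.18) in VEH and 0.047 (-0.026 to 0.12) in LEM. Over the members tested, 9 of 15 core genes were higher in both libraries and 2 lower by CPM, and 3 of 20 cap genes were higher and 14 lower. Among all 11775 genes, 20.5% were higher in both libraries and 68.7% lower.

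Within the core, the higher genes were mostly of the beta ring. Its 3 catalytic genes were higher in both libraries, as were 3 of its 4 other genes, whereas the alpha ring had 3 of 7 higher and 1 lower. *Psmb6* was at 164 CPM in DAM-like and 127 in homeostatic-like cells of VEH, and at 171 and 126 in LEM. Its ratios of 0.37 (0.28 to 0.46) and 0.44 (0.36 to 0.52) were the highest of the members in VEH and by the mean of the libraries, and over the 4 pools it ranged from 0.37 to 0.52. *Psmb4*, a non-catalytic beta gene, was at 88.5 against 72.4 CPM in VEH and 94.1 against 68.3 in LEM, with ratios of 0.29 (0.16 to 0.41) and 0.46 (0.36 to 0.57). *Psmb1*, another of the ring, had ratios of 0.17 (0.072 to 0.27) and 0.30 (0.22 to 0.39), and *Psmb3* had 0.16 and 0.17. All 4 of these genes were higher in 4 of 4 pools, but in cells with 4000 to 8000 counts *Psmb4* had a mean ratio of 0.21 (-0.026 to 0.45) and *Psmb1* of 0.11 (-0.078 to 0.29).

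The other catalytic genes were closer to their homeostatic-like levels. *Psmb5* was at 112 against 106 CPM in VEH and 122 against 104 in LEM, with ratios of 0.075 (-0.036 to 0.18) and 0.22 (0.13 to 0.31). *Psmb7* was at 49.1 against 48.3 CPM and 47.9 against 46.3, with ratios of 0.024 (-0.15 to 0.19) and 0.050 (-0.096 to 0.19). In the alpha ring, *Psma3* went the other way from the beta genes, at 131 against 145 CPM in VEH and 137 against 147 in LEM. Its ratios were -0.14 and -0.11 by CPM, and it was lower in 4 of 4 pools. Relative to the median gene it was above its homeostatic-like level.

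In the cap, 5 of the 6 ATPase genes were lower in both libraries by CPM and 0 higher, and of the 8 lid genes 5 were lower and 1 higher, beside the 68.7% of all genes that were lower. The ATPase gene *Psmc6* was at 62.6 against 74.4 CPM in VEH (-0.25, -0.40 to -0.10) and 69.9 against 74.9 in LEM (-0.10, -0.22 to 0.018). The ubiquitin receptor gene *Psmd4* was at 91.4 against 101 CPM in VEH and 88.8 against 95.8 in LEM (-0.14 and -0.11). *Psmd14* was at 56.3 against 61.4 and 59.4 against 59.9 CPM (-0.13 and -0.013), with a mean of -0.069 (-0.17 to 0.031). *Psmd4* and *Psmd14* turn to 0.13 and 0.19 as means of the libraries when scaled to the median gene. The scaffold genes *Psmd1* and *Psmd2*, the large subunits that hold the cap together, were higher in both libraries, with *Psmd1* at 0.064 and 0.13 and *Psmd2* at 0.031 and 0.23. So was the lid gene *Psmd8*, at 0.0081 and 0.091. Over the pools, *Psmd1* was higher in 4 of 4, from 0.0068 to 0.34, and *Psmd2* in 3 of 4, from -0.10 to 0.29. *Psmd8* was higher in 3 of 4, from -0.095 to 0.077. The lowest value of each had an interval that includes 0. It ran from -0.18 to 0.19 for *Psmd1*, from -0.38 to 0.17 for *Psmd2* and from -0.27 to 0.079 for *Psmd8*.

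*Psmd5*, an assembly chaperone of the ATPase ring rather than a subunit, was the lowest member with more than 100 counts in each library's DAM-like cells. It was at 24.2 against 30.2 CPM in VEH (-0.32, -0.56 to -0.083) and at 21.9 against 28.6 in LEM (-0.39, -0.60 to -0.18), and it was lower in 4 of 4 pools, by -0.79 to -0.07. Relative to the median gene its mean over the libraries was -0.097 (-0.25 to 0.059). By CPM its mean was -0.14 (-0.36 to 0.082) in male cells and -0.059 (-0.46 to 0.34) in cells with 4000 to 8000 counts. Each of these intervals includes 0. *Psma8* had ratios of -0.60 and -0.13 from 25 and 29 counts. By the size of 0.25 in both libraries, 2 core members (*Psmb6* and *Psmb4*) were higher and 1 cap member (*Psmd5*) was lower, against 11.3% of all genes higher and 42.4% lower. Scaled to the median gene, 14 members were past the size in place of 3.

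Over cells of all depths, cap relative to core was lower in cells with more DAM markers. In VEH the log2 of cap over core counts was 0.0048 with 0 markers, -0.046 with 1, -0.067 with 2, -0.095 with 3, -0.21 with 4 and -0.27 with 5. In LEM it was -0.012, -0.038, -0.071, -0.15, -0.22 and -0.22. Median counts per cell went up beside it, from 5630 to 12795 in VEH and from 5684 to 14005 in LEM. A deeper cell can also show more markers by its depth alone. Within 4000 to 8000 counts no such order was seen over 0 to 5 markers, although LEM went down from 0 to 3. There VEH had 0.0048, -0.041, -0.029, 0.063, 0.028 and -0.044 with 0 to 5 markers, and LEM had -0.015, -0.018, -0.063, -0.20, -0.15 and -0.044. Few cells of this depth had many markers, with 36 in VEH and 52 in LEM at 4 markers and 14 and 10 at 5. The intervals at 5 markers ran from -0.40 to 0.32 in VEH and from -0.46 to 0.37 in LEM, too wide to decide on an order.

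Within homeostatic-like cells, the log2 of cap over core was 0.063 in VEH and -0.10 in LEM under 2000 counts, 0.062 and 0.064 at 2000 to 4000, 0.024 and 0.0018 at 4000 to 6000, and -0.013 and -0.031 at 6000 to 8000 counts. Homeostatic-like cells of 8000 to 12000 counts had a log2 of cap over core of -0.026 in VEH and -0.024 in LEM, and those of 12000 to 20000 counts had 0.010 and -0.00048. Among cells with at least 8000 counts, cap minus core of DAM-like against homeostatic-like cells was -0.20 (-0.25 to -0.15) in VEH and -0.18 (-0.22 to -0.14) in LEM. Among cells with 4000 to 8000 counts it was 0.037 (-0.083 to 0.16) in VEH, from 120 DAM-like cells, and -0.16 (-0.26 to -0.062) in LEM, from 170. The libraries thus went apart in the shallower cells, and the VEH interval there does not reach the value of the deeper cells. Neither window matched the states in depth. With at least 8000 counts, DAM-like medians were 12453 in VEH and 12689 in LEM, against 9367 and 9563 in homeostatic-like cells. With 4000 to 8000 counts they were 6351 and 6380.5, against 5866.5 and 5801.

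**Figure D4:**
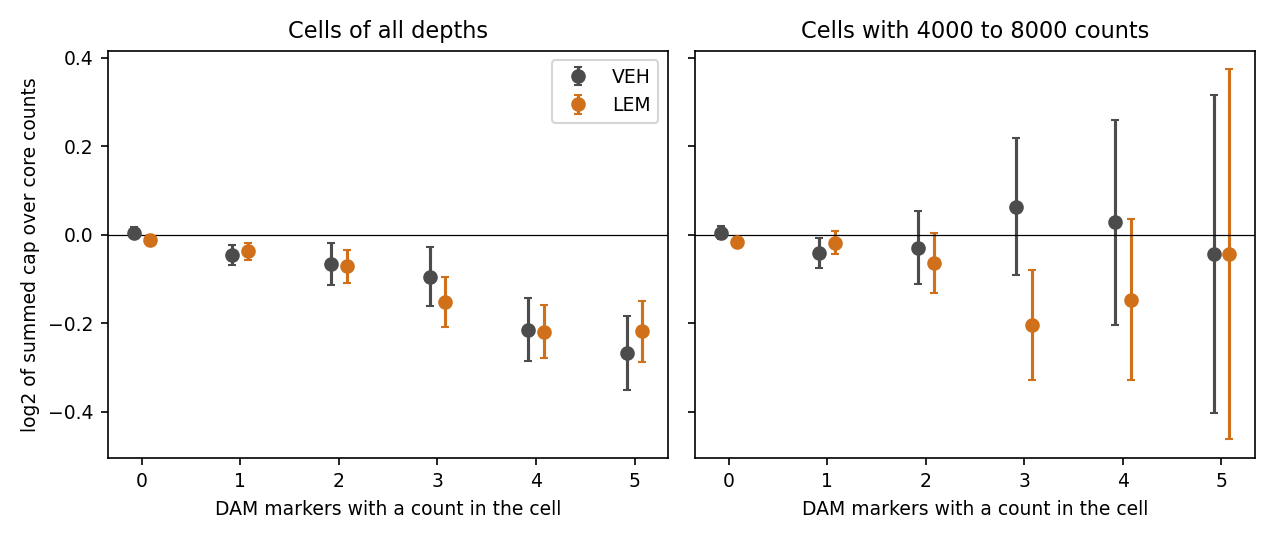
Log2 of summed cap over summed core counts (vertical axis) by the number of DAM markers with a count in the cell (horizontal axis) in VEH (grey) and LEM (orange), for cells of all depths (left) and cells with 4000 to 8000 counts (right), with 95% counting intervals. At all depths the ratio goes from near 0 with 0 markers to -0.27 in VEH and -0.22 in LEM with 5, and in the narrower depth range the intervals with 3 or more markers include 0 in both libraries except for LEM cells with 3 markers, at -0.20.

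Other measures moved with the same cells. Ribosomal protein genes made up 8.04% and 7.83% of the counts of DAM-like cells in VEH and LEM, against 4.39% and 4.60% in homeostatic-like cells. Core genes are also shorter, with coding lengths of 603 to 831 bases among those tested against 666 to 2859 in the cap. Over the 35 members, the DAM-like ratio and coding length had a Spearman rho of -0.41 in VEH and -0.35 in LEM, and over all genes with both values it was -0.18 and -0.21. Genes within the core's range of lengths had a median ratio of -0.17 in VEH and -0.16 in LEM, and genes within the cap's range had -0.27 in each. The part of ribosomal share and gene length in the difference between cap and core was not tested.

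The core was higher in LEM than in VEH among DAM-like cells, by 0.073 (0.035 to 0.11), and the cap by 0.060 (0.020 to 0.10), whereas in homeostatic-like cells the values were -0.020 and -0.034. In female DAM-like cells the core ratio was 0.064 and in male cells 0.065. The cap ratio was 0.083 (0.015 to 0.15) in female and 0.050 (-0.011 to 0.11) in male DAM-like cells. With 4000 to 8000 counts, the cap of DAM-like over homeostatic-like cells was 0.092 in VEH and 0.047 in LEM. The order of the libraries thus turned there for the cap, while the core had 0.055 and 0.21. Cap over core differed between the libraries by -0.013 (-0.067 to 0.042) in DAM-like cells, an interval that spans 0.

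Of the 34 other genes of the pathway, 7 were past 0.25 upward and 3 downward in both libraries in DAM-like cells, against 11.3% and 42.4% of all genes. The 34 genes had a median ratio of -0.13 in VEH and -0.11 in LEM. At any size, 2 of the 5 assembly genes were higher in both libraries and 3 lower. Of the 4 activator genes, 2 were higher and 2 lower, beside 20.5% of all genes higher and 68.7% lower. *Psme1* and *Psme2*, of the PA28 activator, had ratios of 0.40 and 0.42, and of 0.34 and 0.48, in VEH and LEM. *Pomp*, which helps the core assemble, had 0.28 and 0.37, *Psmg4*, an assembly chaperone of the core, 0.60 and 0.62, and *Sem1*, a small cap subunit outside the symbol rule, 0.30 and 0.35. *Ngly1*, whose product acts on the transcription factor that induces proteasome genes, was lower, with -0.67 and -0.64. *Psmb8* was at 215 against 185 CPM and 225 against 177 CPM (0.21 and 0.34), while *Psmb9* had -0.20 and -0.047 and *Psmb10* had -0.13 and -0.087 by CPM. The *Psmb9* to *Psmb6* count ratio was 0.428 and 0.431 in DAM-like cells against 0.635 and 0.604 in homeostatic-like cells.

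In interferon-like cells the inducible subunits were higher by far more than the constitutive ones. The immunoproteasome genes were at 688 CPM in VEH against 375 in homeostatic-like cells and at 660 against 360 in LEM, a ratio of 0.88 in each (0.79 to 0.96, and 0.81 to 0.94). The core was at 1519 against 1422 CPM in VEH (0.095, 0.038 to 0.15) and 1485 against 1403 in LEM (0.083, 0.040 to 0.13). In cells with 4000 to 8000 counts the core had 0.017 (-0.069 to 0.10) in VEH and 0.058 (-0.0061 to 0.12) in LEM. The cap was at 1493 against 1425 (0.067, 0.010 to 0.12) and 1418 against 1392 (0.027, -0.016 to 0.071). With 4000 to 8000 counts it had 0.028 (-0.057 to 0.11) in VEH and 0.018 (-0.048 to 0.083) in LEM. The cap's interval included 0 in each of the 4 pools. The immunoproteasome exceeded the core's difference by 0.78 and 0.79, and by 0.76 to 0.84 over the 4 pools.

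Past 0.25 in both libraries were 0 members upward and 1 downward, against 6.85% and 13.9% of all genes. At any size, 10 core and 8 cap members were higher in both libraries and 2 of each lower, against 21.1% and 46.8% of all genes. The member past the size was *Psma8*, with 4 and 7 counts in these cells. Of the catalytic genes, *Psmb5* was at 122 against 106 CPM in VEH and 113 against 104 in LEM, *Psmb6* at 128 against 127 and 138 against 126, and *Psmb7* at 42.2 against 48.3 and 46.1 against 46.3, and each of these 6 intervals includes 0. The intervals for *Psmd4* (0.059 and -0.014) and *Psmd14* (0.031 and -0.013) include 0 too. By the mean of the libraries, the highest members were the alpha genes *Psma5* (0.39 and 0.11) and *Psma4* (0.36 and 0.10) and the lid gene *Psmd13* (0.12 and 0.26). The lowest after *Psma8* were the assembly chaperone gene *Psmd9* (-0.24 and -0.23) and the scaffold gene *Psmd1* (-0.17 and -0.088).

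The balance of inducible to constitutive catalytic genes therefore differed in these cells. *Psmb9* over *Psmb6* was 1.34 in VEH and 1.19 (1.04 to 1.35) in LEM, against 0.635 and 0.604 in homeostatic-like cells. *Psmb10* over *Psmb7* was 4.82 and 4.15 against 2.27 and 2.29, and *Psmb8* over *Psmb5* was 2.57 and 2.70 against 1.74 and 1.70. *Psme1* was at 408 against 204 CPM in VEH and 371 against 208 in LEM, and *Psme2* at 274 against 137 and 257 against 138. The immunoproteasome genes are themselves induced by interferon, and the gate selected cells on other interferon-induced genes.

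In cycling-like cells the cap was higher, and more so than the core. The cap was at 1705 CPM in VEH against 1425 in homeostatic-like cells and at 1763 against 1392 in LEM, with ratios of 0.26 (0.19 to 0.33) and 0.34 (0.29 to 0.39). The core was at 1536 against 1422 and at 1576 against 1403, with ratios of 0.11 (0.040 to 0.18) and 0.17 (0.11 to 0.22). Cap minus core was 0.15 (0.051 to 0.25) in VEH and 0.17 (0.096 to 0.25) in LEM. It was 0.23 and 0.13 in VEH female and male cells, and 0.16 in both LEM female and LEM male cells. The VEH male interval included 0 (-0.011 to 0.27), and the LEM female one ran from 0.0077 to 0.32. The core's mean ratio of 0.14 became 0.048 (0.0030 to 0.093) with totals without the 20 most abundant genes, and its interval included 0 in 3 of the 4 pools. In cells with 4000 to 8000 counts the libraries went apart for the cap, with -0.076 (-0.26 to 0.099) in VEH and 0.32 (0.18 to 0.45) in LEM, while the core had -0.023 (-0.20 to 0.15) and -0.056 (-0.21 to 0.095).

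Past 0.25 upward in both libraries were 4 core and 9 cap members, with 0 downward, against 28.3% of all genes upward and 23.7% downward. At any size, 11 core and 15 cap members were higher in both libraries and 3 of each lower, against 42.1% and 37.6% of all genes. The cap members were led by *Psmd14*, the deubiquitinase gene, at 110 CPM in VEH against 61.4 and 104 in LEM against 59.9. Its ratios were 0.84 (0.56 to 1.10) and 0.80 (0.57 to 1.02), and it ranged from 0.70 to 0.95 over the 4 pools. *Psmc1*, an ATPase gene, was at 104 against 62.2 CPM and 95.5 against 59.8, with ratios of 0.74 (0.46 to 1.01) and 0.68 (0.44 to 0.91). *Psmd13*, of the lid, was at 99.4 against 65.8 and 107 against 67.8 CPM (0.59 and 0.65), and *Psmd1*, of the scaffold, at 118 against 80.5 and 121 against 77.2 CPM (0.55 and 0.65). These 4 genes were higher in 4 of 4 pools, but *Psmd1* had a mean ratio of 0.22 (-0.27 to 0.70) in cells with 4000 to 8000 counts. The other cap members past the size were *Psmc3*, *Psmd2*, *Psmd5*, *Psmd12* and *Psmc5*, and the 6 ATPase genes were all higher in both libraries.

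In the core, *Psma1*, *Psma6*, *Psmb7* and *Psmb2* were past the size. *Psmb7* was at 68.5 against 48.3 CPM in VEH (0.50, 0.15 to 0.84) and 57.5 against 46.3 in LEM (0.31, 0.0044 to 0.61). *Psmb6* was at 154 against 127 and 148 against 126 CPM (0.28 and 0.23), but its mean ratio was -0.30 (-0.71 to 0.12) in cells with 4000 to 8000 counts. The gene *Psmb5* was at 111 against 106 and 111 against 104 CPM (0.057 and 0.093), with intervals that include 0. In the alpha ring, genes went both ways. *Psma7* was at 101 against 127 CPM in VEH (-0.32, -0.61 to -0.049) and 113 against 132 in LEM (-0.23, -0.45 to -0.021), and *Psma3* at 128 against 145 and 121 against 147 CPM (-0.18 and -0.28). Both were lower in 4 of 4 pools. *Psmd4* was at 89.1 against 101 and 89.4 against 95.8 CPM (-0.18 and -0.10), with intervals that include 0.

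*Psmd10*, an assembly chaperone gene known as the oncoprotein gankyrin, had the lowest mean ratio, but its libraries differed, with -0.12 from 26 counts in VEH and -0.90 from 23 counts in LEM. *Psmd8*, of the lid, had -0.49 in VEH and 0.0050 in LEM. *Psma8* had 0.18 from 7 counts in VEH and 0.91 (-0.11 to 1.77) from 11 counts in LEM, the highest single value there.

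**Figure D5:**
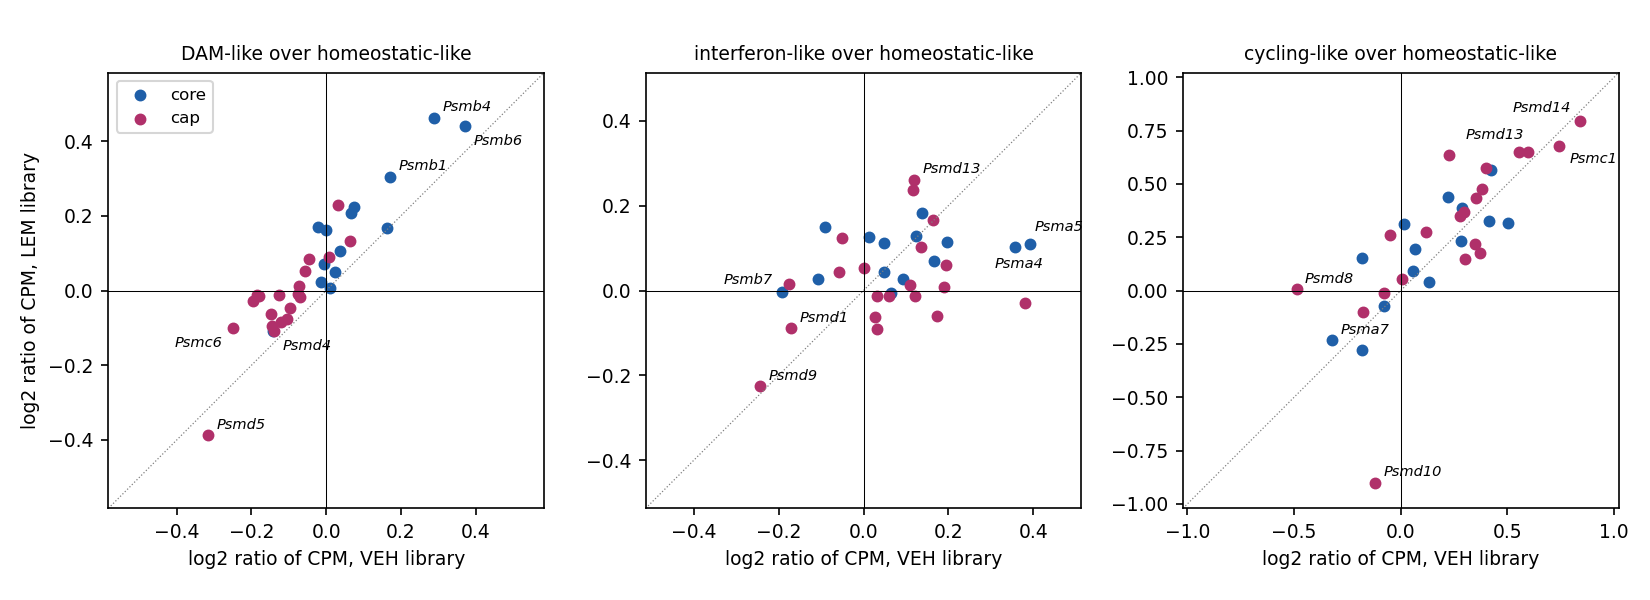
Log2 ratio of CPM against homeostatic-like cells for each member in the VEH (horizontal axis) and LEM library (vertical axis), in DAM-like, interferon-like and cycling-like cells, with core genes in blue and cap genes in red and Psma8 left out for its few counts. The dotted line marks equal ratios, and by this scaling Psmb6 and Psmb4 stand highest and Psmd5 lowest in DAM-like cells, while Psmd14 and Psmc1 stand highest in cycling-like cells.

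The cycling-like cells were few and deep. Those with at least 8000 counts had medians of 10625 in VEH and 11372 in LEM, against 9367 and 9563 in homeostatic-like cells. Among cells with 4000 to 8000 counts, cap minus core was -0.053 (-0.30 to 0.19) in VEH, from 29 cycling-like cells, and 0.37 (0.17 to 0.57) in LEM, from 40. Among cells with at least 8000 counts it was 0.20 (0.095 to 0.31) and 0.15 (0.064 to 0.24). Coding length moved with this difference too, with a Spearman rho over members of 0.30 in VEH and 0.35 in LEM and over all genes of 0.097 and 0.046. Its part was not tested.

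Of the other pathway genes in cycling-like cells, 4 were past 0.25 upward and 7 downward in both libraries, against 28.3% and 23.7% of all genes. The upward ones included the deubiquitinases of the cap, *Uchl5* (1.50 and 1.36) and *Usp14* (0.99 and 0.93), the core assembly gene *Psmg2* (1.36 and 1.33) and *Nploc4* (1.12 and 0.64), a partner of the segregase that feeds substrates to the proteasome. *Uchl5* was at 111 against 39.0 CPM in VEH and 105 against 40.8 in LEM. The downward ones included *Psmb10* (-0.70 and -0.66) and *Psme1* (-0.60 and -0.54).

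Border macrophage-like and choroid plexus-like cells were few, so sums are given and most single members are not. They also held much microglial RNA, with *P2ry12* and *Tmem119* together at 3923 and 3322 CPM in the former and 3623 and 3018 CPM in the latter, against 6830 and 6704 CPM in homeostatic-like cells of VEH and LEM, and the part of that RNA in the levels was not tested. In the 20 VEH and 62 LEM border macrophage-like cells, the core was at 1412 and 1381 CPM and the cap at 1234 and 1181 CPM. The immunoproteasome genes were at 451 and 524 CPM in these cells, against 375 and 360 in homeostatic-like cells. In the 39 and 128 choroid plexus-like cells, the core was at 1727 and 1745 CPM, above the homeostatic-like level by 0.28 (0.17 to 0.39) and 0.32 (0.25 to 0.38), the cap at 1611 and 1574 CPM, and the immunoproteasome genes at 217 and 198 CPM. *Psmb8* over *Psmb5* was 0.485 and 0.519 there, from 66 and 231 counts of *Psmb5*, against 1.74 and 1.70 in homeostatic-like cells.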

How the data were processed

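The authors made 10x 5′ libraries, aligned and counted reads with Cell Ranger 8.0.0 on mm10, named SoupX for free RNA and removed cells with few genes, high counts or high mitochondrial shares. The deposited table holds whole-number counts (unique molecular identifiers) per gene and cell. Whether the SoupX correction is included could not be told. Cell names show the library but not the barcode, so shared barcodes could not be counted, and 0 columns were unmatched.

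Counts were summed per library, state and sex. Intervals for sums were exact Poisson and those for ratios exact conditional binomial at 95%, and differences of log2 ratios used normal intervals from the counts. The code for ratios and intervals was tested on simulated counts. Doublets were kept and left out in an alternative. Scrublet (scanpy 1.11.5, expected rate 0.1) called 0 VEH and 3113 LEM cells by its own thresholds, so the highest 10% of scores (0.341 or more in VEH, 0.340 in LEM, ties included) were used, which called 2087 and 2731 cells. The median-gene scaling used genes counted in 10% of cells. *Clec7a*, a sixth DAM marker, was not analysed here, and of 35 pathway genes 34 were, some of which enter the counts but are not reported here by name.

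Members, gene lists, gates and motifs were chosen with earlier results of these data known. Named members are all members of the symbol rule, with the catalytic genes, *Psmd4*, *Psmd14* and the 3 highest and 3 lowest of each comparison in full. Positions and coding lengths are from GENCODE M21 (GRCm38). The tools were matplotlib 3.10.9, pandas 2.3.3, scipy 1.17.1, numpy 2.4.6 and Python 3.11.15.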

Additional observations from a re-analysis of the deposited data

Results flagged for a closer look

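LEM over VEH went in opposite directions in female and male cells, with both counting intervals off 0, for 1 constitutive member and for *Psmb8*, *Psmb9* and the sum of the 3 inducible subunits. Other pathway genes did so too, in female and male cells. These were *Psme2* (0.10 and -0.044), *Uba1* (0.085 and -0.073), *Ddi2* (-0.15 and 0.15) and *Bag6* (-0.12 and 0.099). The share of all genes that did so was not counted, so it cannot be told whether these genes stand out. *Psmb5* had 0.098 in female and -0.11 in male cells. Its inducible counterpart *Psmb8* had 0.21 and -0.24, *Psmb9* had 0.42 and -0.33, and the summed immunoproteasome genes had 0.20 and -0.22. The third inducible gene, *Psmb10*, had 0.037 (-0.021 to 0.095) and -0.096 (-0.14 to -0.047). The difference between the sexes was not tested, since each sex of each library is 1 pool of few mice.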

How the results depend on the processing

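With 1 library per treatment, precision is limited to counting error, and mice of a pool cannot be separated. No paired analysis was possible because each treatment has 1 library.

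Of the values and counts recomputed for the main comparisons, 63 stayed within the counting interval of the reported value, or within 1.5 times a reported count, and 23 did not. State values here are means of both libraries, and as reported they were 0.13 for the core and -0.055 for the cap in DAM-like cells, and 0.14 and 0.30 in cycling-like cells. Core LEM over VEH was -0.018 with totals without the 20 most abundant genes, 0.0022 in female and -0.021 in male cells, and the cap was -0.033 without those genes. In DAM-like cells, scaling to the median gene gave 0.38 for the core and 0.20 for the cap. Female cells gave 0.15 for the core and -0.0042 for the cap, and male cells gave -0.081 for the cap. The cap turned in direction to 0.070 (0.014 to 0.13) in cells with 4000 to 8000 counts. It was -0.098 with a stricter gate and -0.076 in cells with 8000 counts or more, which was chosen after seeing the data. In interferon-like cells, scaling to the median gene gave 0.17 for the core and 0.13 for the cap, and 4000 to 8000 counts gave 0.038 (-0.015 to 0.090) for the core. In cycling-like cells the core was 0.048 without the 20 genes, 0.069 in female cells and -0.040 with 4000 to 8000 counts, and the cap was 0.21 and 0.12 under the first and last of these. Without the 3 assembly chaperone genes the cap was -0.048 in DAM-like and 0.31 in cycling-like cells.

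The members past 0.25 in LEM over VEH were 0 among genes counted in 10% of cells, since *Psma8* was left out there. In DAM-like cells they were 14 when scaled to the median gene and 5 at a size of 0.15, against 3. Among single members, *Psmb6* in cycling-like cells turned to -0.30 (-0.71 to 0.12) with 4000 to 8000 counts. In that window *Psmb4* was 0.21 (-0.026 to 0.45) and *Psmb1* 0.11 (-0.078 to 0.29) in DAM-like cells, and *Psmd1* was 0.22 (-0.27 to 0.70) and *Psma7* -0.83 (-1.33 to -0.33) in cycling-like cells. Of the other recomputed values, 108 stayed within their intervals and 21 moved. Some of the 21 also changed sign. Among these were *Psmd4* (0.13, 0.050 to 0.21) and *Psmd14* (0.19, 0.085 to 0.29) in DAM-like cells when scaled to the median gene. Leaving out called doublets and cells with counts of both sexes left each recomputed value within its interval, with cap minus core of -0.18 in DAM-like and 0.15 in cycling-like cells. Cap minus core in DAM-like cells was -0.062 with 4000 to 8000 counts and -0.23 with a stricter gate. The causes were not tested.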
